A study of Drosophila melanogaster with 18 samples.

Results

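Ecdysone is the steroid hormone that times moulting and metamorphosis in insects. It acts through a heterodimer of 2 nuclear receptors, the ecdysone receptor EcR and its partner Ultraspiracle, encoded by usp. The occupied receptor switches on a small set of early genes that encode transcription factors, and these act with the receptor on a following wave of early-late and late genes, so that the levels of the early and early-late genes move with the hormone titre late in larval life. The 10 genes described here were EcR and usp, the early genes Eip74EF, Eip75B and br, the early-late genes Eip78C, Hr3, Hr4 and Hr39, and ftz-f1, a nuclear receptor gene whose product sets the competence of prepupal tissues to respond to the next pulse. They were chosen by name, with earlier results of these data known. All 10 were found among the 17411 genes of the deposited counts and passed the filter on low counts in both preparations.

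The libraries came from L3 (late larval stage) Drosophila melanogaster larvae raised at 25 °C, with mef2, a driver of muscle cells, switching on lacZ as the control or the kinase gene Nuak in lines named NUAK548 and NUAK550. Every larva therefore carried the driver, and both NUAK groups are overexpression genotypes in the labels. RNA was taken from whole larvae or from dissected muscle carcass, with 3 libraries for each of the 6 groups. The labels give neither the age in hours nor the sex of the larvae, and do not state that replicates were separate cultures, so p-values measure the spread between these libraries. A difference in genetic background between the lacZ and NUAK larvae cannot be told apart from an effect of NUAK.

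Total counts ran from 14577914 to 19771226 in muscle carcass and from 14931020 to 22341807 in whole larvae. Levels are CPM, counts scaled to the library total and adjusted within each preparation by the trimmed mean of M values (TMM). As a check of the labels, Nuak itself lay between 1854 and 4251 CPM in the 6 NUAK muscle libraries and between 338 and 379 CPM in lacZ muscle, and between 1336 and 2841 CPM against 67.9 to 122.8 CPM in whole larvae. The summed level of 8 muscle genes was 18987 to 99853 CPM in muscle carcass and 2038 to 28004 CPM in whole larvae, while 5 midgut genes summed to 7.40 to 71 CPM in carcass and 1718 to 8019 CPM in whole larvae. Several libraries stood apart. In library 1 of whole lacZ, genes with at least 8000 bases of exon had a median log2 difference of −0.996 from the mean of the other 2 lacZ libraries (456 genes), and genes with under 2000 bases one of 0.30; 7 of the 10 ecdysone genes are that long. Library 1 of whole NUAK548 had a summed level of 5 testis genes of 76.4 CPM, among the lacZ libraries with 55.6 to 87.6 CPM, while the other 5 whole NUAK libraries had 0.59 to 1.71 CPM. Between whole lacZ and whole NUAK550 a difference in testis RNA therefore cannot be told apart from one of genotype. Fits without library 1 of whole NUAK548 have the same limit for both NUAK groups. Library 3 of whole lacZ and of whole NUAK548 was low in muscle RNA (2038 and 2148 CPM against 5099 to 9296 CPM in the other libraries of both groups) and in midgut RNA (1718 and 1732 CPM against 4525 to 6990 CPM). In muscle, library 2 of NUAK550 carried RNA of the ring gland, which makes ecdysone (5 genes, 45.0 CPM against 2.15 to 11.5 CPM in the other libraries), and library 3 of lacZ and of NUAK550 carried salivary glue RNA (7 genes, 1056 and 1251 CPM against 17.1 to 238 CPM).

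EcR (FBgn0000546, 2R 6087873 to 6169087 on the minus strand of BDGP6) had lower values in NUAK550 muscle and higher values in NUAK550 whole larvae than in lacZ, and neither difference passed the test over all genes. In muscle carcass the lacZ libraries had 425, 287 and 422 CPM, the NUAK548 libraries 457, 287 and 306 CPM and the NUAK550 libraries 214, 258 and 228 CPM. All 3 NUAK550 values lay below every lacZ and NUAK548 value, whereas NUAK548 overlapped lacZ. The NUAK550 level was 1.62-fold lower than lacZ (log2 −0.70, SE 0.22, edgeR adjusted p = 0.073), and a lower level without overlap was shared by 16.3% of all genes tested in that comparison. In whole larvae EcR stood at 193, 261 and 253 CPM in lacZ, 230.4, 375 and 384 CPM in NUAK548 and 323, 365 and 335 CPM in NUAK550. Here every NUAK550 value exceeded every lacZ value, as it did for 19% of all genes tested, and library 1 was the lowest of both lacZ and NUAK548. The whole-larva difference was 1.45-fold for NUAK550 (log2 0.53, SE 0.21, edgeR adjusted p = 0.12) and 1.40-fold for NUAK548 (log2 0.48, SE 0.21, edgeR adjusted p = 0.48). Without library 1 of whole NUAK548, the only whole NUAK library with testis RNA, EcR was called in both comparisons (log2 0.67 with edgeR adjusted p = 0.022 for NUAK548, and 0.54 with edgeR adjusted p = 0.030 for NUAK550), in a fit that called 18.4% and 25% of all genes. That fit leaves testis RNA in every whole lacZ library and near 0 in every whole NUAK library. With only lacZ and NUAK550 fitted, EcR was also called (edgeR adjusted p = 0.048, 25.2% of all genes called). Without library 1 of whole lacZ the NUAK550 difference was log2 0.41 (edgeR adjusted p = 0.24).

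The opposite signs in the preparations were tested as an interaction. The NUAK550 difference in muscle minus that in whole larvae was −1.14 on the log2 scale for EcR (SE 0.33, 95% interval −1.84 to −0.44, edgeR adjusted p = 0.078), where 1.82% of all genes were called, and −0.85 for the mean of both NUAK groups (SE 0.28, edgeR adjusted p = 0.14, 2.04% of all genes called). DESeq2 called EcR in both (adjusted p = 0.0044 and 0.022, with 9.37% and 6.63% of all genes called), as did edgeR without library 1 of whole NUAK548 (adjusted p = 0.0064 and 0.0071, with 13.2% and 14.8% of all genes called). The muscle genes summed to 22979 to 28004 CPM in whole NUAK550 and 2038 to 9296 CPM in whole lacZ, and EcR was higher in lacZ muscle than in whole lacZ. In muscle carcass the same genes summed to 65827 to 99853 CPM in NUAK550, 32047 to 50713 CPM in lacZ and 18987 to 61510 CPM in NUAK548. The part of muscle RNA in the differences of either preparation was not tested. As in all bulk samples, fewer cells of a type and less RNA per cell cannot be told apart.

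usp (FBgn0003964, X 2038798 to 2042311, minus strand), the partner of EcR, varied least of the 10 genes. Its muscle values were 79.1, 75.9 and 81.8 CPM in lacZ, 85.1, 99.8 and 86.0 CPM in NUAK548 and 70.7, 76.2 and 81.4 CPM in NUAK550. NUAK548 lay above lacZ without overlap (log2 0.19, SE 0.10, edgeR adjusted p = 0.29), as did 14.3% of all genes tested, and NUAK550 overlapped lacZ. In whole larvae it had 91.3, 94.4 and 86.0 CPM in lacZ, 83.7, 94.4 and 106 CPM in NUAK548 and 95.3, 99.95 and 89.0 CPM in NUAK550, and all groups overlapped. The whole-larva differences were log2 0.07 for both NUAK groups, with 95% intervals of −0.18 to 0.31. Of its exons, 8.72% overlap a neighbour on the same strand and 6.45% one on the other strand.

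Between the preparations of the lacZ genotype, the receptor pair were the only ecdysone genes called, in a comparison that called 22.4% of all genes as higher in muscle and 59.5% in either direction. EcR was 2.32-fold higher in muscle carcass than in whole larvae (log2 1.21, SE 0.23, edgeR adjusted p = 0.00067) in the model of all 18 libraries, whose scaling differs from that of the CPM within a preparation, and in which the median gene had log2 −0.21. usp was 1.26-fold higher (log2 0.33, SE 0.11, edgeR adjusted p = 0.017), a call lost in 3 alternatives, among them without library 3 of lacZ muscle (adjusted p = 0.058) and in a fit of the lacZ libraries alone (adjusted p = 0.056). The other 8 genes had adjusted p from 0.10 for ftz-f1 upward.

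**Figure D1:**
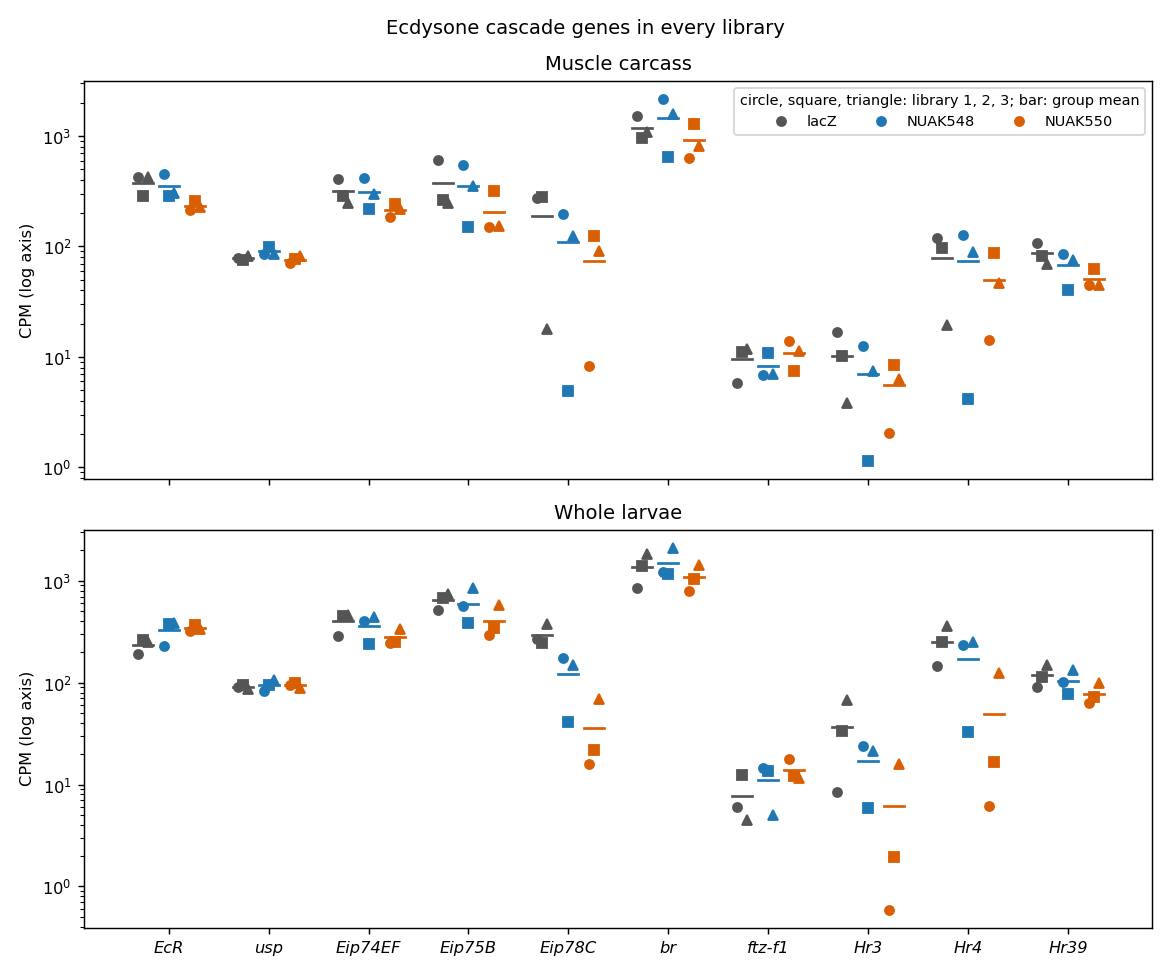
CPM on a log axis of the 10 ecdysone genes in each of the 18 libraries, above for muscle carcass and below for whole larvae. Points are libraries, coloured by group and shaped by replicate number, and bars are group means (n = 3); EcR and usp points lie close together within groups, while Eip78C, Hr3 and Hr4 spread widely within several groups.

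Eip74EF (FBgn0000567, 3L 17558672 to 17619325, minus strand) encodes an ETS-domain transcription factor of the first response to ecdysone. In muscle its values were 407, 288 and 248 CPM in lacZ, 418, 217 and 297 CPM in NUAK548 and 185, 241 and 216 CPM in NUAK550. The NUAK550 libraries all lay below lacZ (log2 −0.55, SE 0.26, edgeR adjusted p = 0.21), as for 16.3% of all genes tested, and those of NUAK548 spanned the lacZ range. In whole larvae it had 285, 448 and 465 CPM in lacZ, 399, 240.3 and 437 CPM in NUAK548 and 246, 252 and 338 CPM in NUAK550. Groups overlapped there, with a NUAK550 difference of log2 −0.52 (SE 0.28, edgeR adjusted p = 0.23).

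Eip75B (FBgn0000568, 3L 17950953 to 18064696, minus strand) encodes a haem-binding nuclear receptor that antagonises Hr3. Muscle values were 601, 265 and 249 CPM in lacZ, 547, 150.4 and 352 CPM in NUAK548 and 150.2, 316 and 154 CPM in NUAK550. All groups overlapped, and the highest library of each group stood well above its lowest. The whole-larva values were 516, 676 and 739 CPM in lacZ, 565, 383 and 841 CPM in NUAK548 and 292, 340.5 and 581 CPM in NUAK550. The NUAK550 difference was log2 −0.85 in muscle (SE 0.53, edgeR adjusted p = 0.34) and −0.67 in whole larvae (SE 0.35, edgeR adjusted p = 0.22).

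br (FBgn0000210, X 1575132 to 1664869, plus strand, named by position) encodes the BTB zinc-finger factors of the Broad-Complex, which specify the passage from larva to pupa. In muscle it had 1505, 950.3 and 1097 CPM in lacZ, 2158, 639 and 1577 CPM in NUAK548 and 633, 1293 and 814 CPM in NUAK550. In whole larvae the values were 858, 1408 and 1813 CPM in lacZ, 1219, 1157 and 2112 CPM in NUAK548 and 786, 1039 and 1438 CPM in NUAK550. All groups overlapped in both preparations, and the differences from lacZ ran from log2 −0.37 to 0.30, with edgeR adjusted p of 0.57 or more.

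Eip78C (FBgn0004865, 3L 21226609 to 21266503, plus strand), a nuclear receptor gene of the same puff series, showed the lowest levels relative to lacZ in whole larvae. Its lacZ libraries had 266, 247 and 373 CPM, those of NUAK548 174, 41.2 and 148 CPM and those of NUAK550 16.0, 22.0 and 69.4 CPM. All 6 NUAK libraries lay below all 3 lacZ libraries, a pattern shown by 3.95% of all genes tested. The NUAK550 level was 8.23-fold lower than lacZ (log2 −3.04, SE 0.70, 95% interval −4.67 to −1.41, edgeR adjusted p = 0.086) and that of NUAK548 2.44-fold lower (log2 −1.29, SE 0.66, edgeR adjusted p = 0.55). For the mean of both groups the log2 difference was −2.16 (SE 0.54, edgeR adjusted p = 0.12). The NUAK550 difference was called without library 1 of whole NUAK548 (log2 −3.04, edgeR adjusted p = 0.010, 25% of all genes called). It was also called when lacZ and NUAK550 alone were fitted (edgeR adjusted p = 0.0061, 25.2% of all genes called) and by DESeq2 (adjusted p = 0.00015, 19.7% of all genes called). Without library 1 of whole lacZ it was log2 −3.11 with edgeR adjusted p = 0.13. NUAK550 and NUAK548 differed from each other by log2 −1.75 (SE 0.67, edgeR adjusted p = 0.23).

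In muscle Eip78C varied widely between libraries of the same group. It had 273, 279 and 18 CPM in lacZ, 197, 4.95 and 125 CPM in NUAK548 and 8.31, 124 and 90.4 CPM in NUAK550. Each group held 1 library far below its others, so that the largest value was 15.0 to 39.8 times the smallest. The 95% interval of the NUAK550 difference, log2 −4.42 to 1.71, spans the whole-larva value as well as 0.

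**Figure D2:**
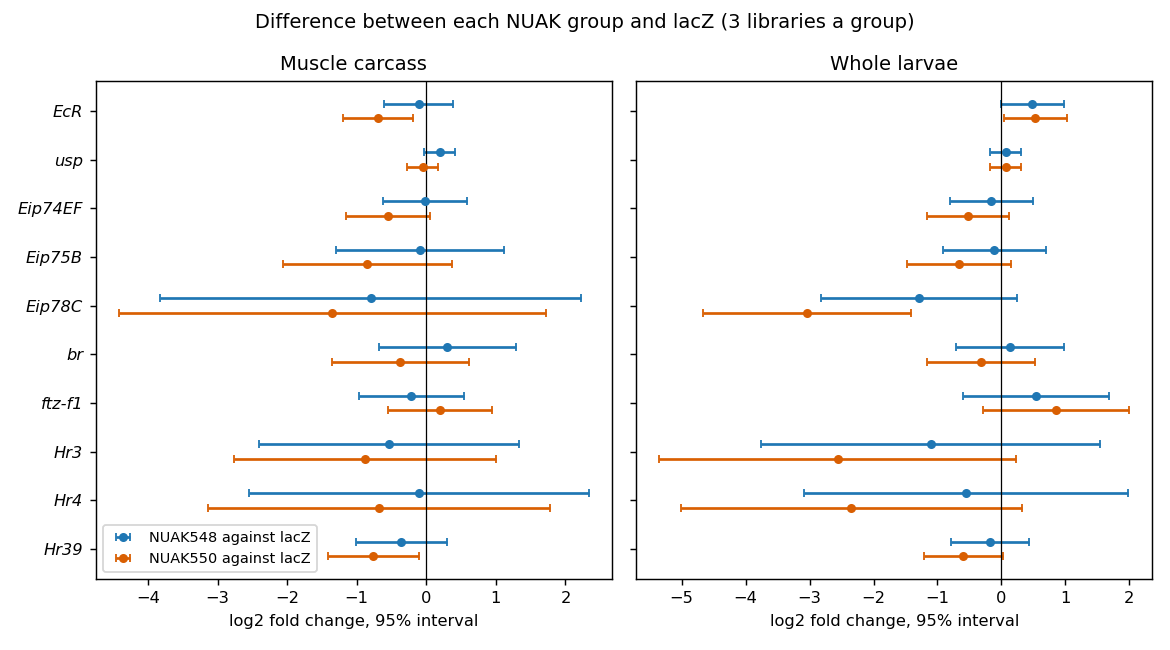
Log2 fold change of each gene for NUAK548 and NUAK550 against lacZ (points) with its 95% interval (bars) from the edgeR fit of 9 libraries per preparation. Intervals are narrowest for usp and widest for Eip78C, Hr3 and Hr4; those that leave out 0 are EcR and Hr39 for NUAK550 in muscle, and EcR and Eip78C for NUAK550 in whole larvae, none of which passed adjustment over all genes.

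Hr4 and Hr3, of the early-late class, varied widely between libraries. Hr4 (FBgn0264562, X 1941940 to 2007956, plus strand), which encodes a nuclear receptor that represses early genes, had whole-larva levels of 145, 252 and 359.6 CPM in lacZ, 234, 32.7 and 250.3 CPM in NUAK548 and 6.11, 16.7 and 126 CPM in NUAK550. NUAK550 lay below lacZ without overlap, as 26.1% of all genes tested did, at log2 −2.34 (SE 1.15, edgeR adjusted p = 0.19). The muscle libraries had 119, 97.5 and 19.5 CPM in lacZ, 127, 4.18 and 88.7 CPM in NUAK548 and 14.2, 86.7 and 46.7 CPM in NUAK550, and all groups overlapped.

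Hr3 (FBgn0000448, 2R 10203995 to 10237348, minus strand) encodes the nuclear receptor that activates ftz-f1 in prepupae; 60.1% of its exon length overlaps CG12912 on the same strand, so its counts are uncertain. In whole larvae it had 8.44, 33.5 and 67.5 CPM in lacZ, 23.7, 5.93 and 21.3 CPM in NUAK548 and 0.589, 1.93 and 15.8 CPM in NUAK550. Its lowest library rested on 8 counts. Groups overlapped, with a NUAK550 difference of log2 −2.56 (SE 1.21, edgeR adjusted p = 0.18). In muscle it had 16.7, 10.2 and 3.83 CPM in lacZ, 12.6, 1.13 and 7.46 CPM in NUAK548 and 2.04, 8.36 and 6.23 CPM in NUAK550.

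Hr39 (FBgn0261239, 2L 21237250 to 21259675, plus strand), a nuclear receptor gene related to ftz-f1, had 108, 81.8 and 69.2 CPM in lacZ muscle, 85.5, 40.4 and 75.8 CPM in NUAK548 and 45.1, 62.2 and 44.9 CPM in NUAK550. The NUAK550 values lay below every lacZ value, as for 16.3% of all genes tested, at 1.70-fold lower (log2 −0.77, SE 0.29, edgeR adjusted p = 0.12). In whole larvae it had 91.4, 114 and 148 CPM in lacZ, 101, 78.2 and 134 CPM in NUAK548 and 62.7, 71.7 and 99.1 CPM in NUAK550. There the lowest lacZ library fell inside the NUAK550 range (log2 −0.60, SE 0.27, edgeR adjusted p = 0.16).

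ftz-f1 (FBgn0001078, 3L 18750607 to 18801309, minus strand), normally high only in mid-prepupae, had between 4.50 and 17.7 CPM in all 18 libraries. In whole larvae it had 6.04, 12.4 and 4.50 CPM in lacZ, 14.7, 13.7 and 5.02 CPM in NUAK548 and 17.7, 12.1 and 11.6 CPM in NUAK550. The NUAK550 difference was log2 0.85 (SE 0.49, edgeR adjusted p = 0.26). Muscle values were 5.77, 11 and 11.7 CPM in lacZ, 6.84, 10.7 and 6.99 CPM in NUAK548 and 14.0, 7.44 and 11.3 CPM in NUAK550. All groups overlapped in both preparations, and 29.4% of its exon length overlaps a noncoding RNA gene on the same strand.

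In all, 0 of the 10 genes were called by edgeR against lacZ or between the NUAK groups in either preparation. The share of all genes called was 5.56% for NUAK548 and 12.6% for NUAK550 in muscle, 10.6% for their mean and 1.45% between them. In whole larvae these shares were 0.155%, 0.808%, 0.424% and 0.139%. At an unadjusted p under 0.05 stood EcR and Hr39 for NUAK550 in muscle (2 of 10, beside 28.4% of all genes), Hr39 for the mean in muscle (1 of 10, beside 26.7%), and EcR and usp between the NUAK groups in muscle (2 of 10, beside 20.6%). In whole larvae they were EcR and Eip78C for NUAK550 (2 of 10, beside 34.6%) and for the mean (2 of 10, beside 29%), and Eip78C between the NUAK groups (1 of 10, beside 21.4%). For NUAK548 against lacZ there were 0 of 10 in muscle, beside 22.2% of all genes, and 0 of 10 in whole larvae, beside 10.5%. These shares were near or below those of all genes. The median log2 difference over the 10 genes was −0.11 for NUAK548 and −0.69 for NUAK550 in muscle, and −0.13 and −0.56 in whole larvae, beside medians over all genes tested of 0.01, 0.03, −0.01 and 0.01. For NUAK550, 9 of 10 genes had negative values in muscle and 7 of 10 in whole larvae. The summed muscle genes were higher in NUAK550 than in lacZ without overlap in both preparations, and the part of this in these values was not tested. DESeq2 called EcR for NUAK550 in muscle (adjusted p = 0.017, 19.1% of all genes called) and Eip78C for NUAK550 and for the mean in whole larvae (10.1% of all genes called for the mean). edgeR called EcR for NUAK550 in muscle without library 1 of NUAK548 muscle (adjusted p = 0.039, 12.3% of all genes called) and Hr39 without library 2 (adjusted p = 0.043, 12.9%). For the mean in whole larvae without library 1 of whole NUAK548, EcR and Eip78C were called, beside 22% of all genes.

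Per kilobase of exon, the order of levels differed between the preparations. In lacZ muscle br stood at 73.6 ± 17.9 CPM per kilobase (SD, n = 3), above EcR at 38.0 ± 7.95, Eip74EF at 33.7 ± 8.91, Eip78C at 32.3 ± 25.3, Eip75B at 27.6 ± 14.8 and usp at 26 ± 0.975. Those 5 did not differ from their neighbours beyond the spread. Hr39 followed at 17.3 ± 3.96, Hr4 at 5.67 ± 3.78, ftz-f1 at 1.11 ± 0.377 and Hr3 at 0.953 ± 0.598 CPM per kilobase. In whole lacZ larvae br came first at 84.5 ± 29.8, then Eip78C at 50.2 ± 11.5, Eip75B at 47.8 ± 8.56 and Eip74EF at 42.8 ± 10.7, which overlapped each other. usp at 29.8 ± 1.39 came next, then EcR at 23.7 ± 3.78, Hr39 at 23.6 ± 5.72 and Hr4 at 18.1 ± 7.72, again overlapping, and last Hr3 at 3.39 ± 2.76 and ftz-f1 at 0.891 ± 0.487 CPM per kilobase. So EcR ranked above usp in muscle and below it in whole larvae.

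Libraries of the same group differed widely in Eip78C, Hr4 and Hr3. The SD of log2(CPM + 0.1) within groups in muscle was 2.45 for Eip78C, larger than in 99.7% of the 9821 genes tested, 1.91 for Hr4 and 1.33 for Hr3. The median over the 10 genes was 0.55, beside 0.234 over all genes tested. In whole larvae the SD was 1.71 for Hr3, 1.64 for Hr4 and 0.94 for Eip78C, with a median of 0.48 beside 0.292. usp lay at the other end, at 0.099 and 0.117, where 9.39% and 9.16% of all genes tested had a smaller SD. This is a description, with no test.

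**Figure D3:**
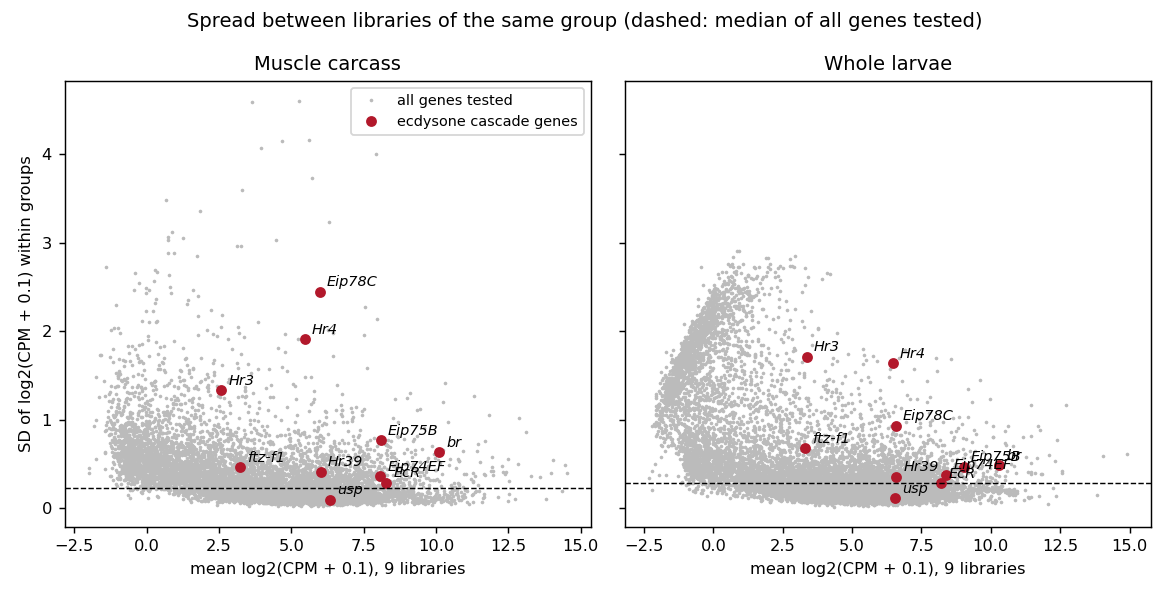
SD of log2(CPM + 0.1) between libraries of the same group against the mean level, for every gene tested (grey) and the 10 ecdysone genes (red), in muscle carcass and whole larvae. Hr3, Hr4 and Eip78C sit above most genes of like level, and usp below the dashed median of all genes.

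Within groups, several of the genes had their extremes in the same library. Eip74EF and Eip75B were highest in the library where Hr4 was highest, and lowest where Hr4 was lowest, in 6 of 6 groups. br and Hr39 shared its highest library in 6 groups and its lowest in 5, Hr3 in 5 and 6, Eip78C in 4 and 5, EcR in 4 and 4, usp in 1 and 1 and ftz-f1 in 0 and 0. In NUAK548 muscle, library 1 held the highest value of 7 of the other 9 genes and of 32.9% of other genes tested, and library 2 the lowest value of 7 of 9 and of 35.2% of other genes. In whole NUAK550, library 3 was the highest for 6 of 9 genes (39.2% of other genes) and library 1 the lowest for 7 of 9 (38.2%). Over all groups, 5 to 7 of the 9 genes followed Hr4 at either end. In whole lacZ, library 1 was the lowest for 6 of 9 genes (34.5% of other genes). That library was low in genes with at least 8000 bases of exon, and 7 of the 10 ecdysone genes are that long. The part of exon length in this order was not tested. Genes of 1 library have its depth, tissue make-up and stage in common, so the shared extremes are a description with no p.

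**Figure D4:**
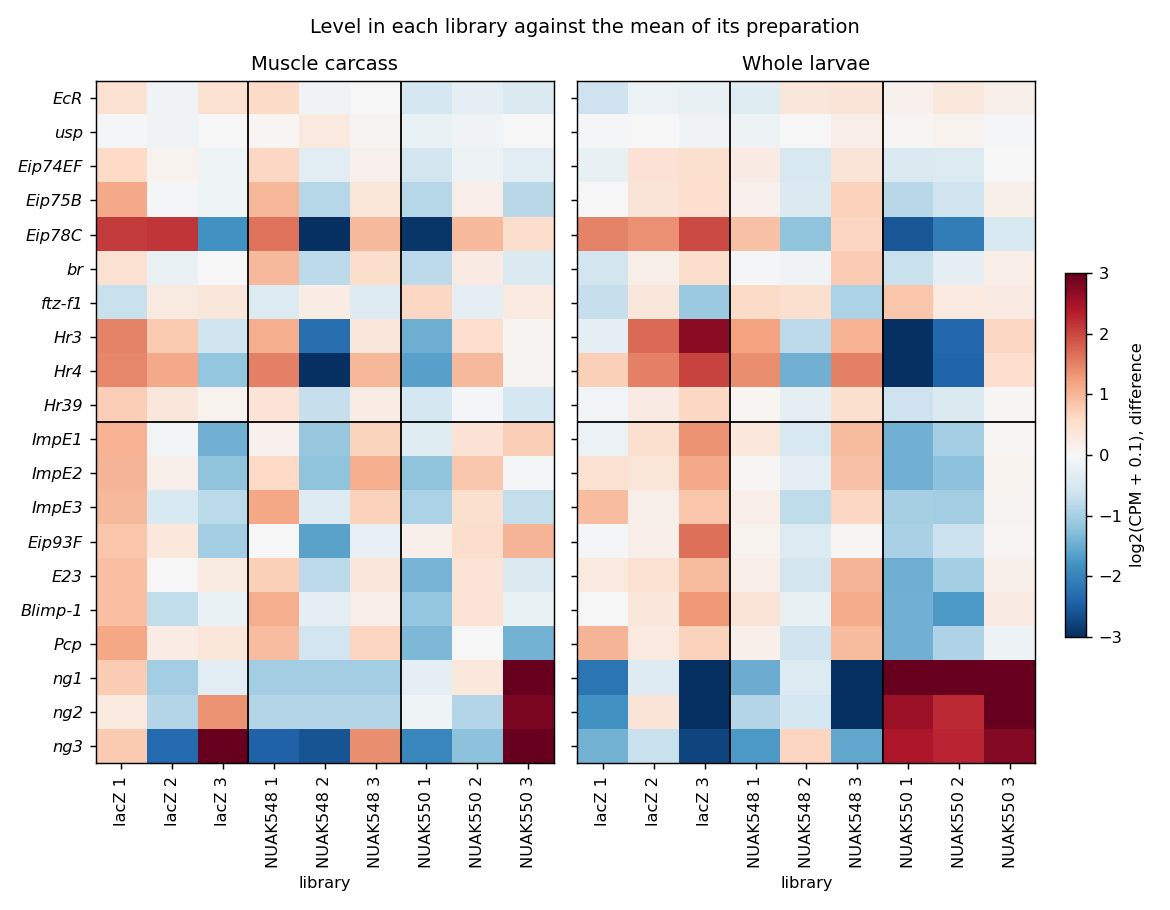
Log2(CPM + 0.1) of each gene in each library minus its mean over the 9 libraries of the preparation, with the 10 ecdysone genes above the line and 10 other stage-linked genes, chosen after their values were seen, below it (colours end at 3 either way). Libraries that are low in Hr4, such as NUAK548 muscle 2 and whole NUAK550 1 and 2, are also low in Hr3, Eip78C, ImpE2, ImpE3 and E23.

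Whether the groups differed in larval timing was examined through genes of known stages. The Sgs genes, which encode the salivary glue proteins of late L3 larvae, summed to 13308 to 26443 CPM in whole lacZ, 10200.2 to 17649 CPM in NUAK548 and 15130.2 to 19833 CPM in NUAK550. All whole-larva libraries were thus high in glue RNA, and the groups overlapped. The new glue genes ng1, ng2 and ng3, salivary genes that precede the Sgs peak, stood apart in whole NUAK550. They summed to 345 to 539 CPM there, against 9.57 to 44.6 CPM in lacZ and 21.0 to 103 CPM in NUAK548. Each was higher than lacZ without overlap, as were 19% of all genes tested. The differences were log2 5.67 (SE 1.15, edgeR adjusted p = 0.069) for ng1, 4.48 (SE 1.33, 0.095) for ng2 and 3.89 (SE 0.80, 0.070) for ng3, and were not called. ng1 and ng2 are close copies, so the split of reads between them is uncertain. Without library 1 of whole NUAK548 all 3 were called (edgeR adjusted p = 0.0028, 0.020 and 0.0037), in a fit that called 25% of all genes. They are named after their values were seen.

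Of the 31 other ecdysone-responsive genes, 23 were tested in whole larvae. For NUAK550, 16 had negative and 7 positive values, and 0 were called, beside 0.808% of all genes. The highest was Hr38, a nuclear receptor gene, at log2 1.22 (SE 1.19, edgeR adjusted p = 0.51), followed by MsrA at 0.28, crol at 0.27, Cyp18a1 at 0.26, ImpL2 at 0.24 and Cth at 0.12, all overlapping lacZ. Pcp, a pupal cuticle gene, had 769, 462 and 612 CPM in lacZ, 419, 248 and 731 CPM in NUAK548 and 139, 198 and 338 CPM in NUAK550 (log2 −1.45, SE 0.46, edgeR adjusted p = 0.095 for NUAK550). ImpE2, an ecdysone-inducible gene of imaginal discs, had 616, 582 and 991 CPM in lacZ and 167, 190.3 and 486 CPM in NUAK550 (log2 −1.38, SE 0.49, edgeR adjusted p = 0.10). ImpE3 (log2 −1.23, edgeR adjusted p = 0.10) and the ABC transporter gene E23 (log2 −1.21, edgeR adjusted p = 0.14) also lay below lacZ without overlap, as 26.1% of all genes tested did. Eip93F, which encodes a factor of steroid-triggered cell death, had log2 −1.27 (edgeR adjusted p = 0.11) and overlapped lacZ. Dronc, also below lacZ without overlap (log2 −1.04, SE 0.18, edgeR adjusted p = 0.051), came nearer to a call than ImpE2, ImpE3, E23 and Eip93F. Likewise without overlap were rpr (log2 −1.02, edgeR adjusted p = 0.095), Eig71Eg (log2 −3.49, 0.095) and ImpL1 (log2 −1.83, 0.13). Pcp and all these genes with negative values were chosen after their values were seen. The L71 genes of the late puff at 71E, leaving out Eig71Ee, summed to 2.20, 2.14 and 15.1 CPM in lacZ, 0.886 to 1.83 CPM in NUAK548 and 0.663 to 1.51 CPM in NUAK550, so that library 3 of whole lacZ was the highest. That library also had the lowest larval cuticle sum of all 9, 5247 CPM beside 6576 to 23258 CPM.

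The sums of the larval lists overlapped between the groups in whole larvae. The 6 larval serum and fat body protein genes summed to 63684 to 74055 CPM in whole lacZ, 50110.1 to 73059 CPM in NUAK548 and 71459 to 88623 CPM in NUAK550. Single genes of this list differed in direction for NUAK550, and 0 were called. Lsp1beta lay above lacZ without overlap (log2 1.49, SE 0.80, edgeR adjusted p = 0.10), as did 19% of all genes tested. Overlapping lacZ were Lsp1alpha at log2 1.84, Lsp1gamma at 1.05, Fbp2 at 0.16, Lsp2 at 0.00026 and Fbp1 at −0.70. These genes are named after their values were seen. The 4 larval cuticle genes Lcp1 to Lcp4 summed to 5247 to 18490.3 CPM, 6576 to 15794 CPM and 11696 to 23258 CPM in the same order. The prepupal and pupal cuticle list, nearly all of it Pcp, summed to 469 to 778 CPM, 262 to 743 CPM and 147 to 348 CPM, so that NUAK550 lay below lacZ without overlap. Edg84A was at or near 0 in all 18 libraries. In muscle the prepupal and pupal cuticle sums were 1108 to 2121 CPM in lacZ, 640.1 to 1772 CPM in NUAK548 and 359.6 to 942 CPM in NUAK550, and NUAK550 did not overlap lacZ.

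**Figure D5:**
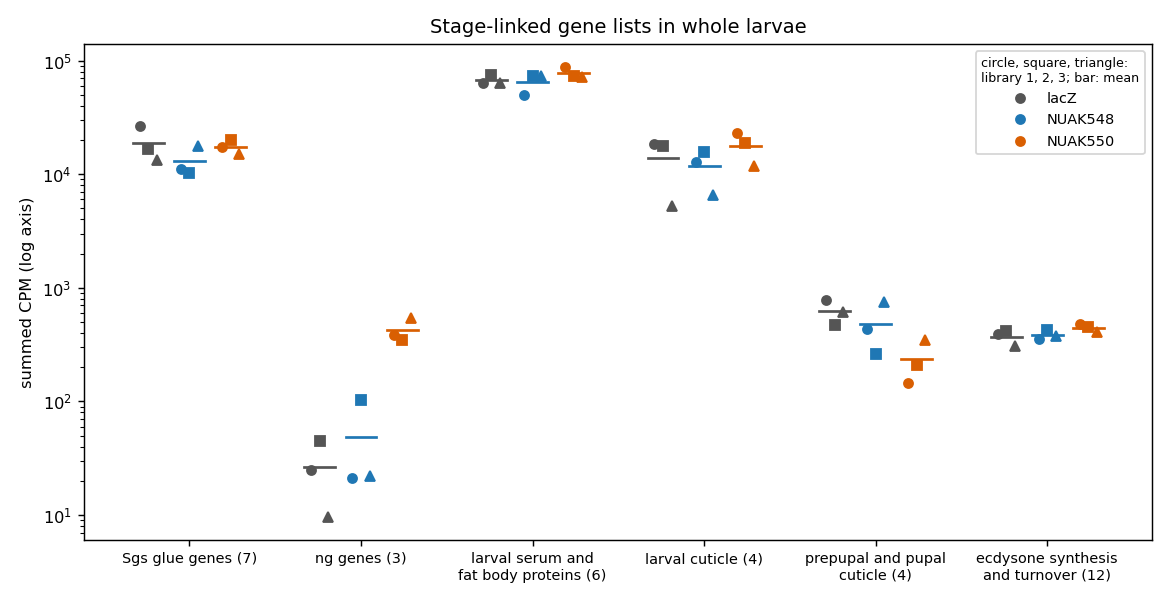
Summed CPM (log axis) of 6 stage-linked gene lists in the 9 whole-larva libraries, with the number of genes in each list, points for libraries and bars for group means. The 3 NUAK550 libraries sit at 345 to 539 CPM for the ng genes, above every other library, and overlap lacZ for the Sgs, larval serum and larval cuticle lists.

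Of the 12 genes of ecdysone synthesis and turnover, 11 were tested in whole larvae and 0 were called in each comparison with lacZ. In muscle 8 were tested, and sro, a dehydrogenase gene of ecdysone synthesis, fell for NUAK550 (91.3, 81.2 and 95.8 CPM in lacZ, 62.9, 76.5 and 57.0 CPM in NUAK550, log2 −0.45, SE 0.12, edgeR adjusted p = 0.044). That call was lost in 11 of 14 alternatives (highest adjusted p = 0.14).

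Among 31 other ecdysone-responsive genes, 20 were tested in muscle and 3 were called for each NUAK group and for their mean, 2 higher and 1 lower. Of all genes tested, 5.56% were called for NUAK548, 12.6% for NUAK550 and 10.6% for the mean. Eip63F-1, an EF-hand calcium-binding protein gene, rose from 80.7, 75.0 and 107 CPM in lacZ to 227, 214 and 214 CPM in NUAK548 and 130.5, 164 and 151 CPM in NUAK550 (mean log2 1.04, SE 0.14, edgeR adjusted p = 0.0033). Cth, listed as Eip55E and encoding cystathionine gamma-lyase, rose by log2 0.61 (SE 0.11, edgeR adjusted p = 0.011), a call lost in 1 of 13 alternatives. rpr, a cell death gene, fell from 19.3, 16.0 and 13.4 CPM to between 1.43 and 3.09 CPM in the 6 NUAK libraries (log2 −2.95, SE 0.22, edgeR adjusted p = 0.00038). The list's median log2 difference for the mean was −0.04, beside 0.01 over all genes tested. In whole larvae 0 of the 23 tested were called, where 0.155% of all genes were called for NUAK548 and 0.808% for NUAK550. The list's medians there were −0.26 for NUAK548 and −0.35 for NUAK550, beside −0.01 and 0.01 over all genes tested.

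All 9 EcR cofactor genes were tested. The muscle comparisons with lacZ called 5.56% to 12.6% of all genes, and those of whole larvae 0.155% to 0.808%. In muscle rig, which encodes a cofactor of the receptor, rose in the mean of the NUAK groups (24.8, 24.1 and 24.3 CPM in lacZ, 27.7 to 34.1 CPM in NUAK, log2 0.32, SE 0.08, edgeR adjusted p = 0.036), a call lost in 10 of 13 alternatives (highest adjusted p = 0.12). bon, a TIF1-family corepressor gene, fell for NUAK550 (log2 −0.53, SE 0.14, edgeR adjusted p = 0.040), a call lost in 6 of 14 alternatives (highest adjusted p = 0.13). Of the 13 other nuclear receptor genes, 8 were tested in muscle and 12 in whole larvae, and 0 were called. Among 8 juvenile hormone genes, Met, a receptor of that hormone, rose in muscle (18.4, 17.1 and 15.0 CPM in lacZ, 21.3 to 27.2 CPM in NUAK, log2 0.56, SE 0.11, edgeR adjusted p = 0.017), a call lost in 2 of 13 alternatives. Jheh2, an epoxide hydrolase gene of juvenile hormone breakdown, fell for NUAK548 (log2 −0.70, SE 0.13, edgeR adjusted p = 0.019), a call lost in 4 of 14 alternatives. In whole larvae 0 of the 9 cofactor and 0 of the 8 juvenile hormone genes were called. All 8 juvenile hormone genes had positive values for NUAK550, with a median of log2 0.38 beside 0.01 over all genes.

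The genes whose pattern was most like that of EcR were ranked by the root mean square distance between z-scored log2 levels over the 9 libraries of a preparation. In muscle they were sev, CG16952 and CG5823, at distances of 0.184, 0.264 and 0.267, where the median over all genes tested was 1.45. sev, which encodes a receptor tyrosine kinase, had 464, 294 and 449 CPM in lacZ muscle, 495, 315 and 358 CPM in NUAK548 and 229, 245 and 223 CPM in NUAK550. In whole larvae they were Traf6, CG32533 and beta'COP, at 0.194, 0.223 and 0.246 beside a median of 1.36.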

How the data were processed

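The authors deposited raw counts of reads per gene, 1 file for each of 18 libraries. Per the submitters' processing notes, Trimmomatic 0.36, STAR 2.5.2b, featureCounts, Subread 1.5.2, DESeq2 and the BDGP6 build were named, with their roles, the strand setting and the annotation release not given in the sources used here. A further 18 deposited columns of normalized values were not used. Symbols came from a reference annotation: 17137 of 17411 identifiers matched, 223 genes were named by position (exon Jaccard index of at least 0.5) and 51 stayed unnamed. The files of whole NUAK550 carry other replicate numbers in their headers than the labels, which were followed.

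The counts were tested with edgeR 4.0.16 in R 4.3.3 (filterByExpr, TMM, two-sided quasi-likelihood F test, Benjamini-Hochberg adjustment, called below 0.05). Each preparation had 1 model of 9 libraries with 6 residual degrees of freedom (9821 genes in muscle, 12255 in whole larvae). A model of all 18 libraries, with 12 residual degrees of freedom and 12429 genes, gave the interaction and the comparison of preparations. The procedure was tested on simulated data. SEs were derived from the fold change and its F statistic. No library was a copy of another of its own group (lowest chi-square over degrees of freedom 40.0). Libraries of different groups were not compared in this way. DESeq2 1.42.0, DESeq2 size factors, no filter, a replicate block, 2-group fits and leaving out each library were alternatives. Both NUAK groups share the lacZ libraries. Possible pairing by replicate number was examined through the correlation, across genes, of deviations from group means: only whole lacZ and NUAK548 had all 3 same-number pairs over 0.1 (0.158, 0.397 and 0.343). The 10 genes, 9 pathway lists and 8 marker lists were chosen with earlier results of these data known. All 10 genes are named; from each pathway list at most 4 called genes are named, by the smallest p of the mean comparison, and other genes are said to be chosen after their values were seen.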

Additional observations from a re-analysis of the deposited data

Results flagged for a closer look

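Differences that were not the same in muscle carcass and whole larvae were tested as an interaction in the edgeR model of all 18 libraries. They were called for 3 genes of the pathway lists and for 0 of the 10 ecdysone cascade genes. Those lists hold 94 genes, not all of them tested. Of all genes tested, 2.04% were called for the mean and 1.82% for NUAK550. The values are the log2 difference from lacZ in muscle minus that in whole larvae. Eip63F-1 had 1.17 for NUAK548 (edgeR adjusted p = 0.0094), 0.94 for NUAK550 (0.026) and 1.06 for their mean (0.0053). All 6 NUAK muscle libraries lay above lacZ, while in whole larvae the lacZ range of 81.3 to 89.4 CPM lay below NUAK548 (93.0 to 104 CPM) and overlapped NUAK550 (72.8 to 85.9 CPM), and neither was called there. The NUAK550 call was lost in 10 of 22 alternatives. rpr had −1.99 for NUAK548 (0.040), −1.95 for NUAK550 (0.038) and −1.97 for the mean (0.014), with 6 of 6 NUAK muscle libraries below all lacZ libraries. In whole larvae it had negative values too, of log2 −1.02 for NUAK550 without overlap (edgeR adjusted p = 0.095) and −0.81 for NUAK548 (0.43). The interaction calls of rpr were lost in 16, 11 and 1 of 22 alternatives. Ptth, the gene of the neuropeptide that triggers ecdysone release, had 4.32 for NUAK550 (0.047) and 3.99 for the mean (0.039). This rests on 1 count in all 3 lacZ muscle libraries together and 10 in each NUAK muscle group, so its size depends on the prior count of the fit, and the calls were lost in 16 and 14 alternatives.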

How the results depend on the processing

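Over 672 settings of single ecdysone genes, 634 kept their direction and side of the threshold, 15 gained and 3 lost the call, and 20 changed sign. By DESeq2 the number of the 10 genes called was 1 for NUAK550 in muscle, 1 for NUAK550 and 1 for the mean in whole larvae, 1 for the interaction of the mean and 1 for that of NUAK550. With only lacZ and NUAK550 fitted it was 2 in whole larvae. For lacZ muscle against whole it was 1 in the 2-group fit, 1 under the replicate block and 1 to 3 when a library was left out. Over all genes these fits called 6639, 5208 and 6046 to 7823, in the same order. Leaving out libraries gave 0 to 1 for NUAK550 in muscle, 0 to 1 for NUAK548, 0 to 2 for NUAK550 and 0 to 2 for the mean in whole larvae, and 0 to 1 for both interactions. The interaction of each NUAK group alone was added after seeing the data. Outside lacZ and NUAK548 in whole larvae, same-number correlations had mixed signs (−0.40 to 0.36 in muscle, −0.03 to 0.23 for the other pairs in whole larvae and −0.24 to 0.26 between preparations). Different-number pairs were not compared, and the headers of whole NUAK550 carry other numbers than the labels used. Whether replicate numbers pair the samples was therefore not settled. For lacZ and NUAK548 in whole larvae, the block changed no call of the 10 genes. It was fitted over all 9 whole-larva libraries, NUAK550 among them. The low muscle and midgut RNA that library 3 of both groups shared was not separated from pairing. Under the block the adjusted p of usp between preparations was 0.092, and under the replicate block Hr4 had log2 0.00928 for NUAK548 in muscle. With a library left out, log2 values for NUAK548 in muscle ran from −0.29 to 0.21 for Eip74EF, −0.56 to 0.45 for Eip75B, −0.094 to 0.64 for br, −1.26 to 0.0095 for Hr3 and −0.76 to 0.43 for Hr4, and for NUAK550 from −0.059 to 0.41 for ftz-f1. For NUAK548 in whole larvae they ran from −0.024 to 0.12 for usp, −0.35 to 0.066 for Eip74EF, −0.44 to 0.13 for Eip75B, −0.19 to 0.40 for br and −0.40 to 0.019 for Hr39. The cause was not tested. Over all genes, edgeR called 546 for NUAK548, 1233 for NUAK550 and 1041 for the mean in muscle, where DESeq2 called 1132, 1880 and 1661, the replicate block 222, 572 and 520, and fits without a library 174 to 529, 403 to 1297 and 410 to 978. In whole larvae edgeR called 19, 99 and 52, DESeq2 480, 2419 and 1241, and the replicate block 13, 91 and 13. Without library 1 of whole NUAK548 these counts were 2271, 3098 and 2721, the highest of the fits without a library, whose lowest were 4, 12 and 3. Between the NUAK groups 142 genes were called in muscle and 17 in whole larvae, and 897 and 1012 by DESeq2. The interaction of the mean had 254 calls, 824 by DESeq2, 145 under the replicate block and 118 to 1858 without a library. With 3 libraries a group and the spread of Hr3, Hr4 and Eip78C, an interval that spans 0 leaves the direction undetermined.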
